A study of Mus musculus with 24 samples.

Results

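The levels of 9 genes were followed through the crypt epithelium of the mouse small intestine. Of these, 5 serve the making of leukotrienes and prostaglandins from arachidonic acid, and 4 are signalling genes best known from blood cells. The 9 genes were Alox5, Alox5ap, Ltc4s, Ptgs1, Hpgds, Matk, Bmx, Vav1 and Rgs13. They were found by symbol, each in 1 row, among the 55421 genes of the count table, and all 9 are described. RNA had been sequenced as low-input cDNA from 24 libraries of epithelial cells, sorted with EpCAM, CD24 and CD45 antibodies, with 8 mice that each gave a stem, a transit-amplifying (TA) and a Paneth fraction. The 4 control mice, called het, were Setd1aFC/+; Lgr5-eGFP-CreERT2. The 4 knockout mice, called hom, were Setd1aFC/FC; Lgr5-eGFP-CreERT2. All 8 received tamoxifen, 1 mg intraperitoneally on 3 consecutive days, and crypt cells were taken 4 days after induction, so the controls carry the Cre, the drug and 1 FC allele too. The Cre sits under Lgr5, a gene of crypt base stem cells, and whether the cells that carry the 9 transcripts had lost Setd1a was not tested. Ages and sexes of the mice were not given in the sources used here.

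Tuft cells are rare chemosensory cells of the gut epithelium that depend on the transcription factor Pou2f3 and respond to parasites and microbial metabolites. They are known for making cysteinyl leukotrienes and prostaglandin D2, which few other epithelial cells make, and for expressing many genes shared with leukocytes. In the leukotriene branch, Alox5 (5-lipoxygenase) works with the membrane protein encoded by Alox5ap, and Ltc4s joins the product to glutathione. In the prostaglandin branch, Ptgs1 (cyclooxygenase) makes the precursor from which Hpgds makes prostaglandin D2. Matk is a kinase that phosphorylates the inhibitory tyrosine of Src family kinases, Bmx is a kinase of the Tec family, Vav1 is an exchange factor that acts below antigen receptors, and Rgs13 speeds the shut-off of G protein alpha subunits.

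On build mm10 the genes lie, as counted over their exons, at chr6:116410077-116461178 (Alox5, minus strand), chr5:149264767-149288153 (Alox5ap, plus), chr11:50236461-50238616 (Ltc4s, minus), chr2:36230426-36252272 (Ptgs1, plus) and chr6:65117293-65144908 (Hpgds, minus). The signalling genes lie at chr10:81252935-81263365 (Matk, plus), chrX:164192842-164258193 (Bmx, minus), chr17:57279100-57328031 (Vav1, plus) and chr1:144138654-144177372 (Rgs13, minus).

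Levels are given as CPM, the counts of a gene relative to the library total scaled by the trimmed mean of M-values (TMM), with the SD over the mice of a group. Library totals ran from 24726282 to 47052856 counts, and 3 counts, used as the detection floor of a library, stand for 0.0533 to 0.235 CPM. The 10 most abundant genes took 18.8% to 57.2% of the counts in Paneth libraries and 13.1% to 23.7% in the other libraries, and the scaling factors of Paneth libraries ran from 0.454 to 1.09. Setd1a itself read 5.62 ± 1.51 CPM in het and 5.16 ± 1.48 CPM in hom stem libraries (SD, n = 4 each), 4.86 ± 1.38 and 5.27 ± 0.963 CPM in TA libraries, and 9.72 ± 3.95 and 6.23 ± 1.04 CPM in Paneth libraries. The ranges of the genotypes overlapped in each fraction. The count covers the whole gene, including exons outside any deleted part, so it does not check the genotype labels.

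Promoter sequence is shown for the members that held a searched motif, because the 9 genes shared 1 pattern of levels over the sorted fractions. RefSeq promoters of build GRCm38.p6, 250 bases before to 50 bases after a start, were found for 8 of the 9 members, with 9 windows in all. Alox5ap had no window. The motifs searched were 3, read on both strands: GAGGAAGT, a site of the PU.1 and SPI-B type of ETS factor; ATGCAAAT, the octamer of POU factors; and TATAAA, the TATA box. GAGGAAGT lay in 3 of the 9 member windows and in 3.20% of all 32851 windows. ATGCAAAT lay in 1 member window and in 1.74% of all, and TATAAA in 0 member windows and in 13.6% of all. Capitals mark the match in the sequences that follow, which are given 5′ to 3′ in the direction of the gene. The Hpgds start of RefSeq lies 178 bases inside the gene as counted, so the Hpgds matches given below lie within the counted gene. The first sequence is the 250 bases before the start of Ptgs1, chr2:36230176-36230425, plus strand, with the match beginning 24 bases before the start. The next is the 250 bases before the start of Vav1, chr17:57278850-57279099, plus strand, with the match 11 bases before the start. The last are windows of 30 bases from Hpgds on the minus strand, at chr6:65144761-65144790 and chr6:65144886-65144915, whose matches begin 49 and 174 bases before the RefSeq start.
Ptgs1: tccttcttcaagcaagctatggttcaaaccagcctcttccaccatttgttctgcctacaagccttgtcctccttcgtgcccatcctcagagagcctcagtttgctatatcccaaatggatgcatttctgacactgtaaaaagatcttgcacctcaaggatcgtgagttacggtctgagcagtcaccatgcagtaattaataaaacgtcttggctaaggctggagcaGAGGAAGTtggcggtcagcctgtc
Vav1: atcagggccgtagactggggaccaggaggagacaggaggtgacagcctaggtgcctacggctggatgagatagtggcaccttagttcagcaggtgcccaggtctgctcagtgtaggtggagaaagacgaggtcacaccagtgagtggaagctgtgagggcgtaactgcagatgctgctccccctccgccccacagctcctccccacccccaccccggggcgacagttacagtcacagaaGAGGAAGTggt
Hpgds ETS site: gcttttaggtgGAGGAAGTggcctctggct
Hpgds octamer: ctttactctttATGCAAATacgttggacta
A match says only that these letters are present, and the motifs were chosen with the levels of the genes known.

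All 9 genes were high in the Paneth libraries and near 0 in the others. Of the CPM of each gene summed over 24 libraries, 98.0% (Hpgds) to 99.9% (Ptgs1) lay in the 8 Paneth libraries. Together the 9 genes took 0.148% to 0.717% of the counts of a Paneth library, and Rgs13 alone made up 38.2% to 63.9% of that sum. In stem libraries the 9 genes summed to 2.83 to 14.6 CPM and in TA libraries to 1.39 to 27.7 CPM, against 1955 to 6562 CPM in Paneth libraries. No stem or TA library reached the lowest Paneth library for any of the 9 genes. In bulk samples, fewer cells of a type and less RNA per cell cannot be told apart.

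**Figure D1:**
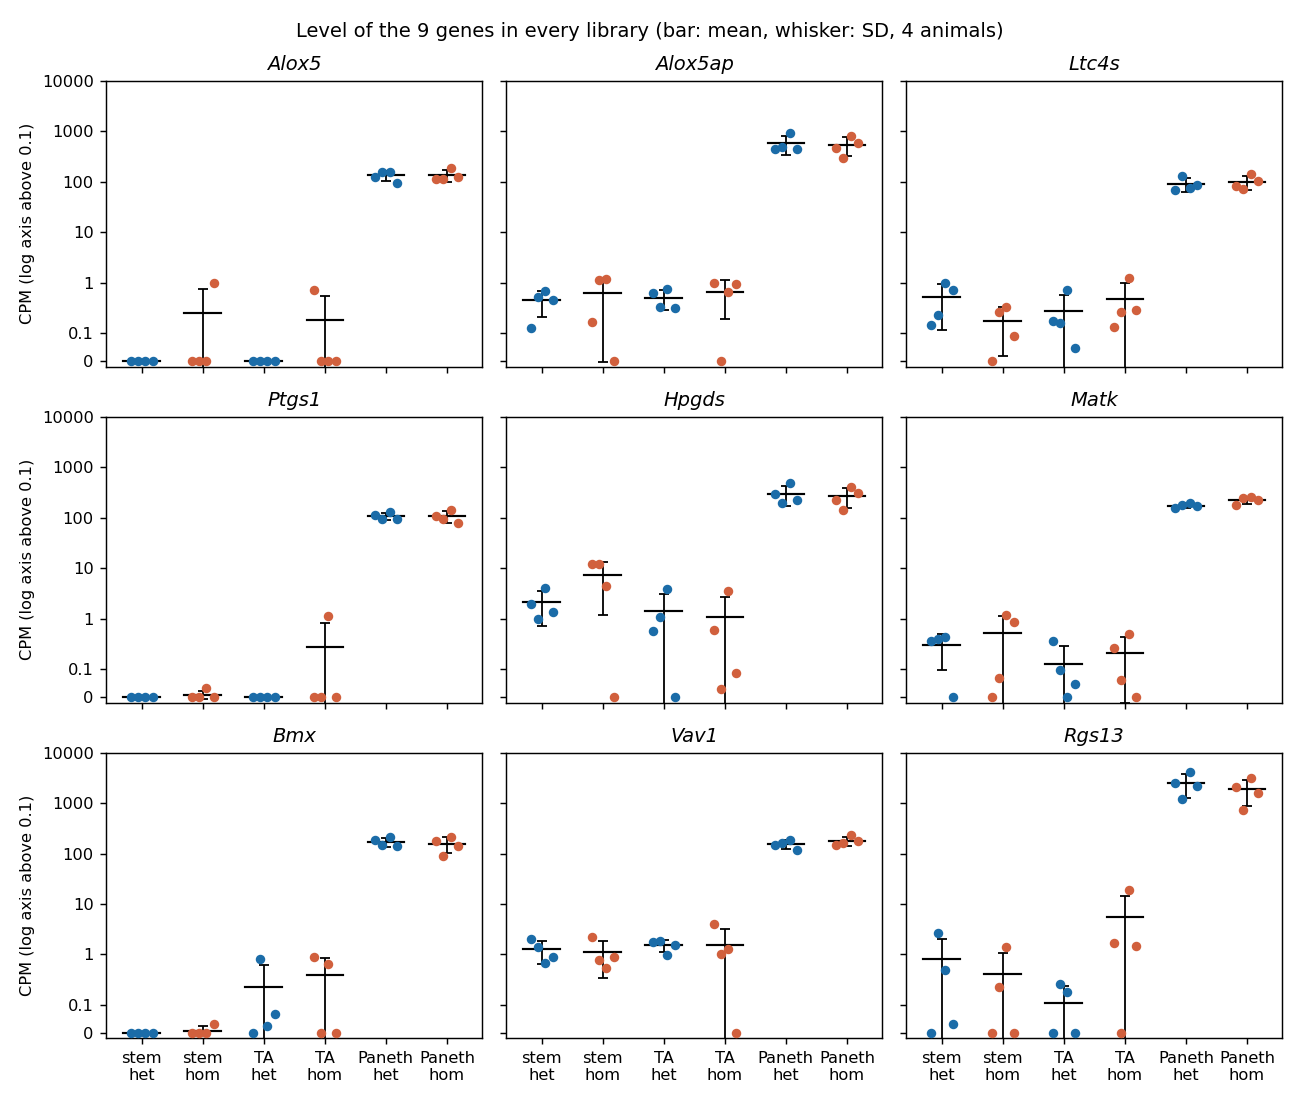
Level of each gene in every library (points; y axis in CPM, logarithmic above 0.1; x axis, fraction and genotype), with the mean (bar) and SD (whisker) of 4 mice. The Paneth libraries stand above all stem and TA libraries in each panel, and Alox5 and Ptgs1 are at 0 in the 8 het stem and TA libraries.

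The leukotriene genes are described first, library by library. Alox5 read 126, 156, 156 and 96.3 CPM in the het Paneth libraries of mice BN44, BO27, BO58 and BP03, and 115, 113, 186 and 127 CPM in the hom Paneth libraries of mice BN45, BO25, BO57 and BP04. The genotypes overlapped. In the same order Alox5ap read 451, 493, 932 and 450 CPM in het and 463, 295, 818 and 595 CPM in hom libraries. Mice BO58 (het) and BO57 (hom) stood above the other 6 for Alox5ap. Ltc4s read 69.5, 133, 74.7 and 88.5 CPM in het and 83.4, 71.5, 140 and 102 CPM in hom libraries, with BO27 and BO57 the highest. Outside the Paneth fraction, Alox5 had 0 counts in all 8 het stem and TA libraries, 33 counts in 1 hom stem library (BP04) and 27 in 1 hom TA library (BN45), and 0 in the other 6. Alox5ap stayed between 0 and 1.19 CPM and Ltc4s between 0 and 1.22 CPM in the 16 stem and TA libraries.

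The prostaglandin enzymes are described next. Ptgs1 read 115, 94.1, 129 and 95.9 CPM in het and 110, 92.9, 143 and 79.5 CPM in hom Paneth libraries, and the groups overlapped. Hpgds read 299, 199, 484 and 227 CPM in het and 225, 142, 408 and 303 CPM in hom Paneth libraries, highest in BO58 and BO57 and lowest in BO25. Ptgs1 had 0 counts in 14 of the 16 stem and TA libraries. The exceptions were hom libraries of mouse BO57, with 1 count in the stem and 35 counts (1.10 CPM) in the TA fraction. In hom stem libraries Hpgds had 505, 549, 146 and 0 counts (12.0, 12.2, 4.44 and 0 CPM), and in het stem libraries 110, 48, 135 and 42 counts (1.95, 0.995, 4.08 and 1.35 CPM). In the hom stem library of mouse BN45, with 505 Hpgds counts, Rgs13 had 0 counts.

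Among the signalling genes, Matk read 153, 178, 197 and 171 CPM in het and 178, 244, 258 and 223 CPM in hom Paneth libraries. In hom mice 3 of the 4 libraries lay above the highest het library, and the fourth lay within the het range. Bmx read 184, 150, 214 and 140 CPM in het and 180, 88.9, 215 and 142 CPM in hom libraries, with BO25 alone below 100 CPM. Vav1 read 149, 164, 185 and 117 CPM in het and 150, 162, 230 and 174 CPM in hom libraries, and the groups overlapped. Rgs13 was the most abundant member, with 2520, 1198, 4191 and 2178 CPM in het and 2077, 746, 3167 and 1571 CPM in hom libraries. Its libraries differed by up to 5.62 times and the genotypes overlapped. Outside the Paneth fraction, Vav1 was seen in 15 of 16 libraries, with 1.26 ± 0.604 CPM in het stem and 1.52 ± 0.402 CPM in het TA libraries (SD, n = 4 each). Bmx had 0 counts in all 4 het stem libraries and 1 count in the hom stem libraries together. Rgs13 reached 18.7 CPM (597 counts) in the hom TA library of mouse BO57 and stayed at or below 2.67 CPM in the other 15 stem and TA libraries.

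Levels of different genes are compared per kilobase of exon (RPKM). Over the 8 Paneth libraries Rgs13 stood first with 1333 ± 667 RPKM, followed by Alox5ap with 396 ± 149 and Ltc4s with 94.0 ± 27.1 RPKM (SD, n = 8). Each of these stood above the next in the order in 8 of 8 libraries. Bmx (53.1 ± 13.7 RPKM), Vav1 (45.1 ± 8.89), Hpgds (44.5 ± 17.7) and Matk (43.6 ± 8.16) were not separated: Bmx exceeded Vav1 in 6, Vav1 exceeded Hpgds in 4, and Hpgds exceeded Matk in 3 of the 8 libraries. Alox5 (32.8 ± 7.13 RPKM) lay below Matk in 8 of 8 libraries, and Ptgs1 (27.6 ± 5.39 RPKM) lay below Alox5 in 6 of 8. Gene counting ignored strand, and Alox5ap, Ltc4s and Ptgs1 share 189, 268 and 148 exon bases with opposite-strand genes (Gm19719, Gm26542 and Gm43621). Those genes averaged 0.128, 2.37 and 0.633 CPM over 24 libraries, and reads of a pair cannot be told apart in the shared bases.

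The Paneth libraries were then compared with the TA and stem libraries within each genotype, to ask where in the sorted crypt the genes were expressed. In het mice all 9 genes rose against TA libraries by edgeR's quasi-likelihood test (Benjamini-Hochberg adjusted p from 1.65e-06 to 0.000748), beside 17.4% of all tested genes called higher (2813 of the 4721 called, and 1513 of 4983 with library totals). Against het stem libraries all 9 rose (adjusted p from 2.51e-06 to 0.000341; background 17.3%). In hom mice all 9 rose against TA libraries (adjusted p from 1.85e-05 to 0.00299; background 16.3%) and against stem libraries (adjusted p from 4.63e-07 to 0.00434; background 17.4%). The genes entered these tests through their counts in the Paneth libraries, so the number that passed is no support of its own. The comparisons of a genotype share its Paneth libraries.

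By size, Rgs13 had the largest ratio of mean CPM that could be formed with more than 3 counts on both sides, 23163-fold for het Paneth against TA libraries, where the TA libraries held 15 counts in all. The same ratio in hom mice was 345-fold, with 597 of the 715 hom TA counts in 1 library. Alox5 was at least 1744-fold and Ptgs1 at least 1416-fold higher in het Paneth than in het TA libraries, taking the mean floor of 3 counts per library for the group at 0. Against het stem libraries the bounds were at least 1764-fold for Alox5, 1432-fold for Ptgs1 and 2271-fold for Bmx. Alox5ap was 1155-fold higher than in TA and 1301-fold higher than in stem libraries of het mice, and Matk 1411-fold and 596-fold higher. The smallest ratios were those of Vav1 in het mice, 101-fold against TA libraries, and of Hpgds in hom mice, 37.7-fold against stem libraries.

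Between stem and TA libraries no member passed the test. In each genotype 5 of the 9 members had enough counts to be tested and 0 were called by edgeR's quasi-likelihood test, beside 6.26% of all tested genes in het and 4.61% in hom mice (3285 and 2844 genes at an unadjusted p below 0.05). DESeq2 also called 0 members in each. The values with the widest distance were those of hom mice: Hpgds had a log2 fold change of 2.76 (SE 1.48, adjusted p = 0.379, edgeR) for stem against TA, and Rgs13 one of -3.78 (SE 1.77, adjusted p = 0.305).

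Transcripts of other tuft genes were also present in the Paneth libraries. Of 24 tuft identity markers, 23 rose in het Paneth against TA libraries, beside 17.4% of all tested genes called higher. Their median log2 fold change was 9.80 beside 0.08 for all genes tested (22 rose and 1 fell with library totals). Only 10 of the 24 had enough counts to be tested in het stem against TA libraries. Many thus entered through their Paneth counts, and the number that rose is no support of its own. Dclk1, a microtubule-linked kinase, averaged 848 ± 245 CPM and Trpm5, a cation channel of taste signalling, 430 ± 94.3 CPM in Paneth libraries (SD, n = 8). Markers of other cells were in the same libraries: the summed Paneth cell markers ran from 71212 to 885647 CPM and the summed enteroendocrine markers from 5758 to 11530 CPM, all 11 and all 12 of them present. The library label names a sorted fraction.

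Cells of the blood lineages express several of the 9 genes too, and their markers were read in the same 8 libraries. The mast cell proteases Cpa3 and Mcpt1 had 2 and 14 counts over all 8 Paneth libraries and Mcpt4 had 0. The 12 mast cell markers summed to 5.14 to 28.2 CPM, most of it from Slc18a2 (11.7 ± 7.27 CPM), and 1 marker was at 0. Het libraries held 14.5 to 28.2 CPM of them and hom libraries 5.14 to 11.8 CPM. Among single genes with a mean of at least 5 CPM, 1.71% of 10885 had no overlap between the genotypes. The share among sums of markers was not counted. Of the 12 markers, 2 had enough counts for the genotype test by edgeR and 0 were called, as for all genes (0%). The part of these markers in the genotype values of the 9 genes was not tested. Among 11 eosinophil and neutrophil markers, which summed to 110 to 185 CPM, Siglecf gave 153 ± 23.3 CPM while Prg2 and Epx had 2 and 3 counts. The 12 macrophage and dendritic cell markers summed to 65.3 to 192 CPM, of which Lyz2 gave 108 ± 52.2 CPM, with Adgre1 at 0.591 ± 0.889 and Csf1r at 0.0340 ± 0.0416 CPM. The 13 T and innate lymphocyte markers summed to 1.36 to 16.4 CPM, with Cd3e at 13 and Cd3g at 13 counts. The 9 B and plasma cell markers summed to 1.45 to 11.1 CPM. Ptprc, which encodes CD45 and is also in the list of tuft identity markers used here, read 30.1 ± 6.61 CPM in these libraries. CD45 was among the antibodies of the sort, and which cells gave the Ptprc counts was not tested.

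The remaining eicosanoid genes did not follow the 5 eicosanoid members as a block. Of 46 listed genes 23 were tested in het Paneth against TA libraries, and 7 rose and 7 fell, beside 17.4% of all tested genes called higher and 11.8% called lower. Their median log2 fold change was -0.66, beside 0.08 for all genes. With library totals in place of TMM, the median of all genes became -0.41 and 5 rose and 8 fell. For Paneth against TA libraries in hom mice 7 rose and 6 fell, with a median of 0.27 beside 0.08. Against stem libraries 8 rose and 5 fell in het mice (median 0.049 beside 0.046). In hom mice 6 rose and 3 fell (median 0.107 beside 0.061). With library totals more fell than rose in each: 2 rose and 8 fell, 6 and 9, and 4 and 5, in the same order. The fold changes that follow are for het Paneth against TA libraries. Upstream, Pla2g4a, the cytosolic phospholipase that frees arachidonic acid, rose by 2.16 (SE 0.27, adjusted p = 0.000442, edgeR, log2) from 48.2 ± 12.4 CPM in TA libraries to 212 ± 61.3 CPM. The secreted phospholipase Pla2g2a rose by 7.44 on the log2 scale (SE 0.98, adjusted p = 0.000599). Which cells of the Paneth fraction gave the Pla2g2a counts was not tested. Lta4h, which makes leukotriene B4, fell by 1.34 on the log2 scale (adjusted p = 0.00272), and Mgst1 fell by 1.51 (adjusted p = 0.00277). Ptges3 (log2 fold change -0.66, adjusted p = 0.0300) and Ptgr1 (-1.42, adjusted p = 0.000219), which act on prostaglandins, also fell. Hpgd, which inactivates prostaglandins, rose by 0.74 (adjusted p = 0.0270, and 0.498 with library totals), and Mgst3 had a log2 fold change of 0.62 (adjusted p = 0.139).

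Several other genes of the pathway, chosen after their values were seen, had low levels in the Paneth libraries. The inducible cyclooxygenase Ptgs2 read 1.13 ± 1.14 CPM over the 8 Paneth libraries, against 107 ± 21.0 CPM for Ptgs1. The second prostaglandin D synthase, Ptgds, read 0.0743 ± 0.134 CPM, against 286 ± 114 CPM for Hpgds. Alox12 and Alox15 read 0.0333 ± 0.0530 and 0.753 ± 1.59 CPM. The leukotriene receptor genes Cysltr1, Cysltr2 and Oxgr1 had 1, 28 and 3 counts over the 8 libraries, and the prostaglandin D2 receptor genes Ptgdr and Ptgdr2 had 29 and 7. At this depth these receptors were at or near the floor in the sorted epithelium.

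More genes of the haematopoietic signalling list rose than fell. Of 48 listed genes 32 were tested in het Paneth against TA libraries, and 20 rose and 1 fell (background 17.4% higher and 11.8% lower), with a median log2 fold change of 2.05 beside 0.08. With library totals 16 rose and 2 fell. In hom mice 18 rose and 1 fell of 30 tested (16 and 3 with library totals). Of all tested genes 16.3% were called higher and 12.2% lower there, and the median log2 fold change was 2.36 beside 0.08. For stem against TA libraries 28 of the 48 had enough counts to be tested in het and 23 in hom mice. Some genes thus entered through their Paneth counts, and the list was chosen with earlier results known. The number that rose is therefore no support of its own. Ptpn6, a phosphatase that restrains Src family signalling, rose by 4.62 (adjusted p = 1.51e-05, edgeR, log2, het against TA), Plcg2 by 5.21 (adjusted p = 1.96e-05), and the PI3-kinase gamma genes Pik3r5 by 8.91 (adjusted p = 6.24e-05) and Pik3cg by 8.52 (adjusted p = 0.000133). Rgs2 rose by 2.67 (adjusted p = 0.000517) and Blnk by 0.85 (adjusted p = 0.0227, and 0.378 with library totals). The broadly expressed Rac1 fell by 0.59 (adjusted p = 0.0237). Relatives of the members differed: Vav3 rose by 3.22 (adjusted p = 0.00257), while Vav2 had a value of 0.34 (adjusted p = 0.517, and a value of -0.13 with library totals) and Tec, of the family of Bmx, one of 0.53 (adjusted p = 0.243).

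**Figure D2:**
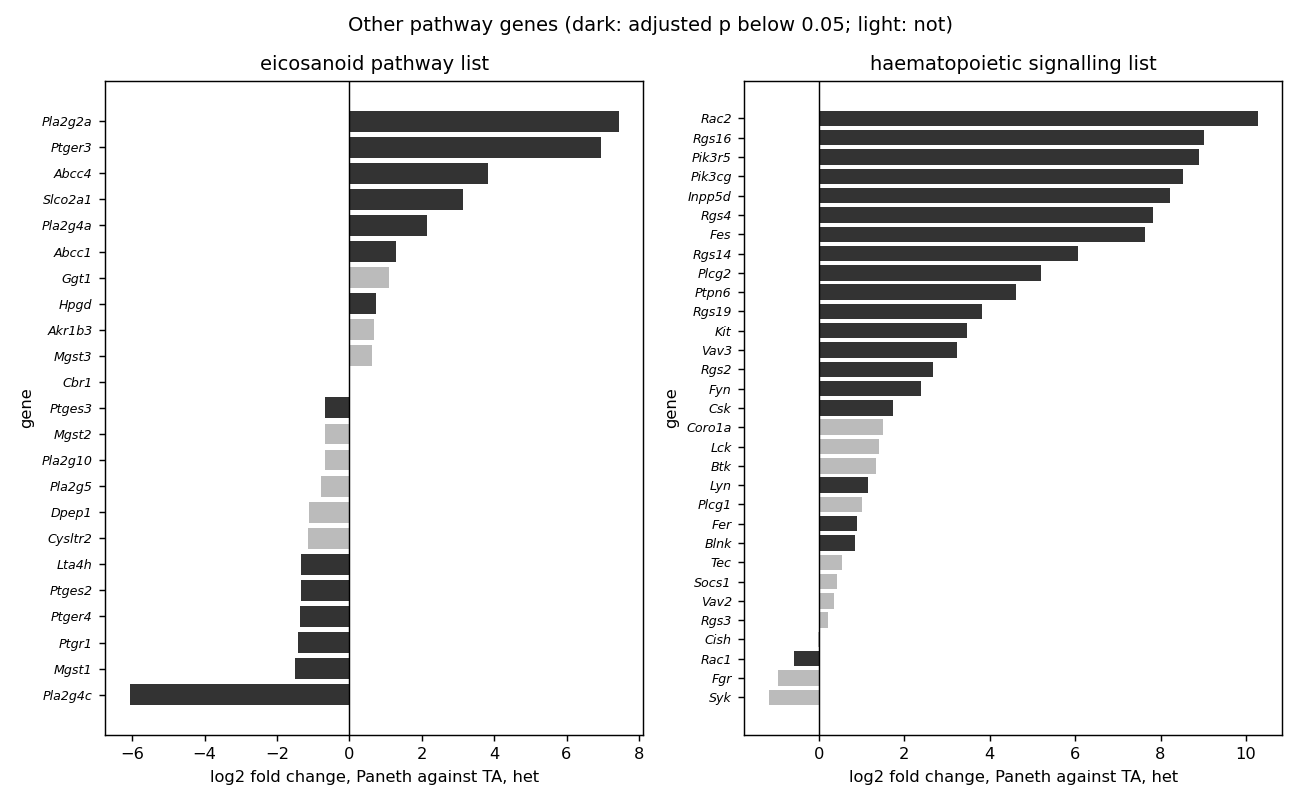
Log2 fold changes (x axis) of the tested genes of the eicosanoid list (left) and the haematopoietic signalling list (right) for het Paneth against TA libraries, 4 against 4, with genes on the y axis and dark bars for adjusted p below 0.05. The left panel has 7 dark bars on each side of 0, and the right panel, which leaves out 1 gene of the list, has 19 on the positive side and 1 on the negative.

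Genes of similar profile were looked for in the whole table. Over the 24 libraries, 10508 genes were ranked by the root mean square distance of centred log2 CPM profiles. Nearest to Alox5 were Cd300lf (distance 1.01), Rgs22 and Bmx, nearest to Alox5ap Rgs22 (1.18), Sh2d7 and Ly6g6f, and nearest to Ltc4s Dgki (0.88), Chat and Cwh43. Ptgs1 had the closest neighbour of any member, Ly6g6f at 0.55, then Plcb2 and Siglecf. Hpgds lay near Nrep (1.61), Parp8 and Strip2, Matk near Ly6g6f (1.05), Rgs22 and Cd300lf, Bmx near Pik3cg (1.00), Ptgs1 and Plcb2, and Vav1 near Tuba1a (1.00), Fam167a and Fcnaos. Rgs13 had the most distant nearest neighbour, Dclk1 at 1.74, followed by Ptgs1. The profiles were centred but not scaled, so a distance also depends on how high each gene stood in Paneth libraries. That mean was 2206 CPM for Rgs13, 848 CPM for Dclk1 and 107 CPM for Ptgs1. These distances run over libraries of the stem, TA and Paneth fractions, which differ in depth.

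Among the 8 Paneth libraries the members did not vary alike. The SD of log2 CPM ran from 0.27 for Matk to 0.79 for Rgs13. Hom mouse BO57 held the highest value of 6 members and 1 of the 2 highest values of all 9, and het mouse BO58 held the highest value of the other 3. The 10 most abundant genes took 27.2% of the Paneth counts in BO57 and 18.8% in BO58. In the remaining Paneth libraries they took 33.9% to 57.2%, and the part of this in the member levels was not tested. Hom mouse BO25 held the lowest value of 4 members. Alox5 and Vav1 were closest to each other over these libraries (root mean square distance 0.13 on the log2 scale), then Alox5ap and Hpgds (0.18) and Matk and Vav1 (0.20). Rgs13 and Matk were the farthest apart (0.83).

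**Figure D3:**
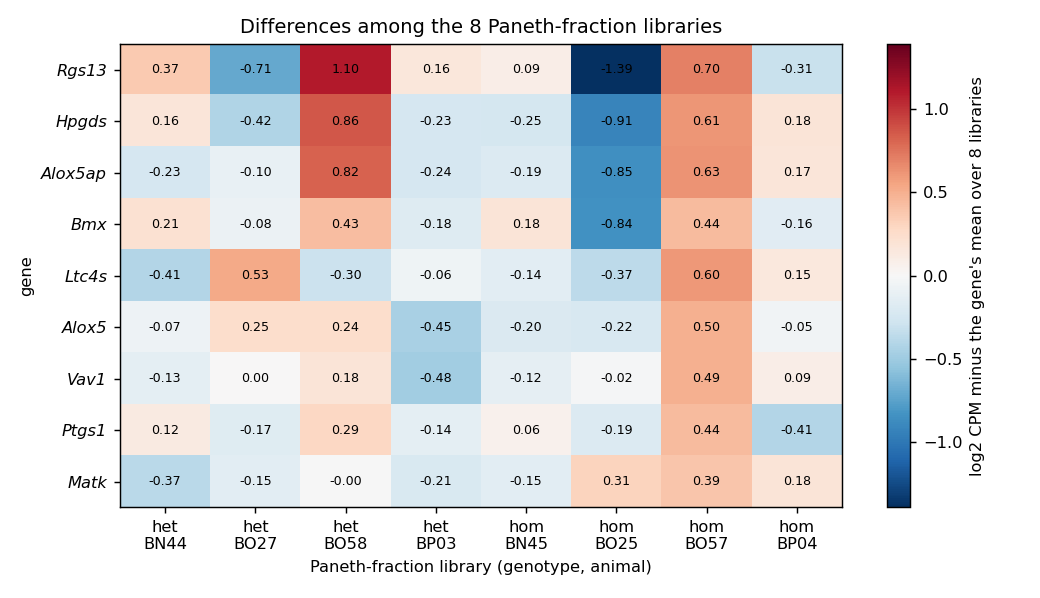
Log2 CPM of each gene (rows) in each Paneth-fraction library (columns, genotype and mouse) minus the mean of the gene over the 8 libraries. Rgs13 has the largest spread (SD 0.79) and Matk the smallest (SD 0.27), and the BO57 column is above the mean for all 9 genes.

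The amount of other tuft transcripts differed between the same libraries. The sum of the tuft identity markers, without Tubb5, a tubulin that stem and TA libraries also held, ran from 2852 CPM in BO25 to 5051 CPM in BO58, with an SD of log2 of 0.28. When each member was divided by this sum, a scale chosen after the data were seen, the SD of log2 became smaller for 8 of the 9 members: from 0.31 to 0.15 for Alox5, from 0.53 to 0.29 for Alox5ap and from 0.79 to 0.61 for Rgs13. For Matk it became larger, from 0.27 to 0.38. The division also cancels the scaling factor of each library. How often the spread of other genes became smaller was not counted, so the 8 of 9 is not a result about the members. Per 100 CPM of tuft markers, the Paneth libraries held 54.2 ± 20.1 CPM of Rgs13, 13.9 ± 2.83 of Alox5ap and 2.45 ± 0.572 of Ltc4s (SD, n = 8).

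**Figure D4:**
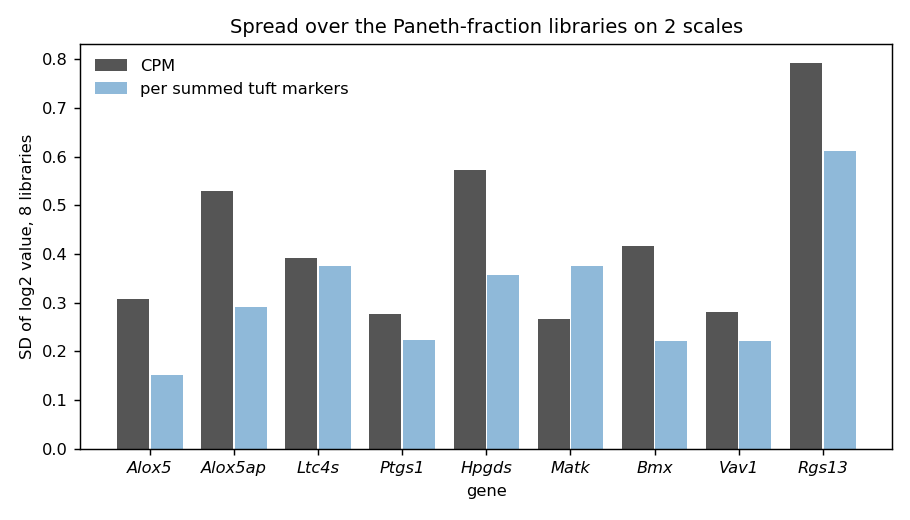
SD of log2 values over the 8 Paneth-fraction libraries (y axis, from 0) for each gene (x axis), as CPM (dark) and divided by the summed tuft identity markers (light). The light bar is lower than the dark bar for 8 genes and higher for Matk.

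The genotype comparison asked whether loss of Setd1a changed these levels. In the Paneth libraries 9 of 9 members were tested and 0 were called by edgeR's quasi-likelihood test, as for all genes (0% called of 16108, of which 368 had an unadjusted p below 0.05). DESeq2 called 27 genes and 0 members. In CPM the groups overlapped for all 9 members, beside 1.71% of 10885 genes whose groups did not overlap. The fold changes of hom against het are given with 95% intervals: Alox5 1.01 (0.71 to 1.44), Alox5ap 0.93 (0.56 to 1.57), Ltc4s 1.08 (0.72 to 1.64), Ptgs1 0.98 (0.70 to 1.38) and Hpgds 0.89 (0.52 to 1.52). For the signalling genes they were 1.29 (0.98 to 1.70) for Matk, 0.91 (0.60 to 1.40) for Bmx, 1.16 (0.84 to 1.60) for Vav1 and 0.76 (0.37 to 1.52) for Rgs13. Matk had the smallest unadjusted p, 0.0625, with an adjusted p of 1.00.

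**Figure D5:**
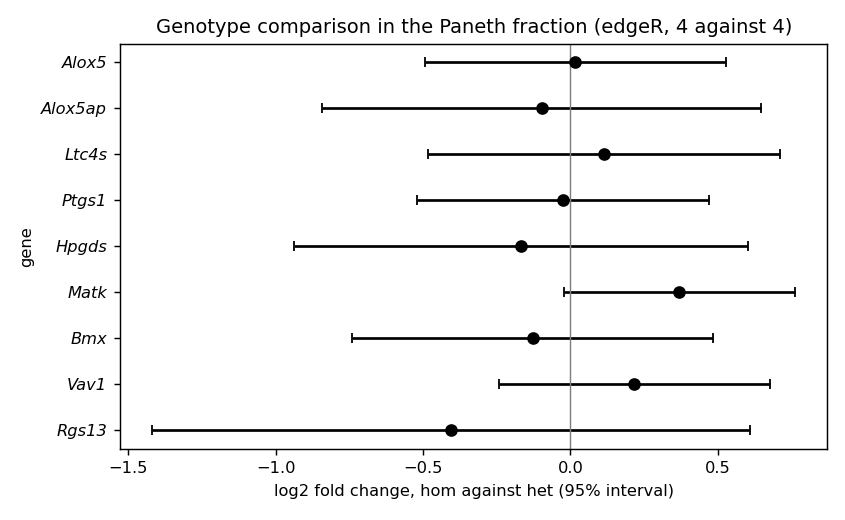
Log2 fold changes of hom against het Paneth libraries (x axis, points) with 95% intervals (lines) for the 9 genes (y axis), by edgeR on 4 against 4 libraries. All 9 intervals include 0, and that of Rgs13 is the widest.

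Relative to the tuft marker sum, the groups of 1 member did not overlap: Vav1 ran from 3.66 to 3.93 CPM per 100 CPM of tuft markers in het and from 4.19 to 5.67 in hom libraries, beside 0.91% of 10885 genes without overlap on that scale. This scale was chosen after the data were seen, and no test was made on it.

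In the other fractions the members were too scarce for most tests. In stem libraries 5 members were tested and 0 called by edgeR (0.0125% of all genes called, 1081 genes at an unadjusted p below 0.05, and 277 genes and 0 members called by DESeq2). Hpgds had a log2 fold change of 1.77 (SE 1.09, adjusted p = 0.838), with 3 of the 4 hom libraries above the highest het library and the fourth at 0. In TA libraries 3 members were tested and 0 called (0% of all genes, 942 at an unadjusted p below 0.05, and 121 genes and 0 members by DESeq2). The hom TA mean of Rgs13, 5.48 ± 8.85 CPM against 0.109 ± 0.130 CPM in het (SD, n = 4 each), held 597 of its 715 counts in mouse BO57.

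Whether the genotype effect differed between fractions was tested by an interaction. For Paneth minus TA libraries 0 of 9 members were called by edgeR beside 0.00516% of all genes (965 at an unadjusted p below 0.05, DESeq2 31 genes). For Paneth minus stem libraries 0 members and 0% of genes were called (1219 and 59 genes by the same counts), and for stem minus TA libraries 0 members and 0% of genes (767 and 19 genes). DESeq2 called 0 members in each. For Rgs13 the interaction was -6.18 on the log2 scale (SE 1.94, adjusted p = 0.848) for Paneth minus TA and -6.84 (SE 2.10, adjusted p = 1.00) for stem minus TA libraries, both with the 597 counts of the hom TA library of mouse BO57. Without that mouse the Rgs13 value for Paneth minus TA libraries was -4.19 (adjusted p = 0.908) and that for stem minus TA libraries -6.71 (adjusted p = 1.00). Values of 8 of the 27 member interactions are not given, because a group held 3 counts or fewer, among them all those of Alox5 and Ptgs1.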

How the data were processed

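Fragments per gene were counted by the authors with featureCounts 2.0.1 on Ensembl 98 gene models of mm10, without strand and at a mapping quality of at least 1, and deposited as raw counts, per the file headers. The headers name a gsnap folder, and the submitters' processing notes name bcl2fastq 2.20.0. From these counts, 92 ERCC rows were left out, and CPM, RPKM over exon length and tests were computed with R 4.3.3, edgeR 4.0.16 (filterByExpr, TMM, quasi-likelihood test, Benjamini-Hochberg adjusted p below 0.05) and DESeq2 1.42.0. Each comparison used its own 8 libraries and the interactions used 24. The scripts were tested on simulated data. Figures were drawn with matplotlib 3.10.9.

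The 9 members and the 15 gene lists were chosen with earlier results of these data known. All members are named, together with the 8 genes of highest mean CPM of the eicosanoid and signalling lists, the first 2 genes of a marker list where that list is described, and the 3 nearest profiles; 1 gene that this rule names is not reported here. Other list genes, such as Ptgs2, Ptgds, Alox12, Alox15, the receptors, Vav2, Vav3, Tec, Siglecf, Lyz2 and Ptprc, were chosen after their values were seen. Libraries are called by fraction, genotype and mouse. The fractions of 1 mouse share its name in the labels, and the labels name no pairs of het and hom mice. The alternatives were other scalings, other filters, 1 fit of all libraries, DESeq2, the animal as a block, and each mouse left out. The division by tuft markers, the overlap counts, the scaling check of the lists and the omission of interaction values with 3 counts or fewer in a group (8 of 27, of which 0 were called, lowest adjusted p 0.782 by edgeR) were chosen after seeing the data. No label names a batch.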

Additional observations from a re-analysis of the deposited data

Results flagged for a closer look

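In 12 of 49 groups of 4 libraries 1 library stood far from the other 3, by a gap above Dixon's critical value for 4 samples. For normally distributed values chance marks about 1 in 20 groups. That rate does not apply to 5 of the 12, where the other 3 libraries were at 0 and any count is marked whatever its size. Of the 12, 11 lie in stem and TA libraries, where levels are near the floor. In the Paneth fraction the only one was Alox5ap at 932 CPM in het mouse BO58, with 450 to 493 CPM in the other 3 libraries.

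The hom TA library of mouse BO57 held 4 of them. Rgs13 read 18.7 CPM there against 0 to 1.71 CPM in the others, Hpgds 3.54 against 0.0295 to 0.58 CPM, Ltc4s 1.22 against 0.132 to 0.281 CPM, and Ptgs1 1.10 against 0 CPM. The hom stem library of the same mouse held Rgs13 at 1.40 CPM (others 0 to 0.221 CPM) and Ptgs1 at 0.0304 CPM, which is 1 count. In hom mouse BP04 the stem library held Alox5 at 0.993 CPM and Bmx at 0.0301 CPM, again 1 count, and in hom mouse BN45 the TA library held Alox5 at 0.712 CPM, with 0 CPM in the other libraries of each group. Bmx read 0.807 CPM in the het TA library of mouse BO27 against 0 to 0.0673 CPM. Matk was the only low one, at 0 CPM in the het stem library of mouse BP03 against 0.355 to 0.423 CPM.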

How the results depend on the processing

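The number of members called was the same in every alternative run: 9 of 9 for each of the 4 Paneth comparisons and 0 in the others. Their adjusted p over the alternatives reached 0.0295 at most in the Paneth comparisons and was 0.650 or more for the genotype in Paneth libraries (edgeR and DESeq2). Among the members' fold changes without a call, the sign turned 5 times under another setting, with the stem minus TA interaction of Matk counted under each of its settings. With the animal as replicate block, Vav1 for stem against TA in hom mice became 0.10 and the stem minus TA interaction of Matk became -0.061. With library totals, Alox5 for the genotype in Paneth libraries became -0.14, the Paneth minus TA interaction of Vav1 -0.014 and the stem minus TA interaction of Matk -0.016. The block changed no member's call, and it gave 1848 and 1427 genes for stem against TA in het and hom mice in place of 1013 and 736.

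Leaving out 1 mouse turned the sign of 22 results, with no adjusted p below 0.821. In log2 units they ranged as follows. Stem against TA: Alox5ap from -0.40 to 0.26 (het) and from -0.95 to 0.55 (hom). Genotype in stem libraries: Vav1 from -0.78 to 0.13 and Alox5ap from -0.067 to 0.86. Genotype in TA libraries: Vav1 from -0.96 to 0.48 and Hpgds from -2.56 to 0.98. Genotype in Paneth libraries: Ptgs1 from -0.18 to 0.10, Alox5ap from -0.34 to 0.21, Hpgds from -0.42 to 0.14, Bmx from -0.30 to 0.069, Alox5 from -0.16 to 0.11 and Ltc4s from -0.082 to 0.36. Paneth minus TA interaction: Ltc4s from -1.87 to 0.18, Matk from -1.80 to 0.52, Vav1 from -0.25 to 1.27 and Hpgds from -0.88 to 2.09. Paneth minus stem interaction: Alox5ap from -1.05 to 0.079, Rgs13 from -1.95 to 2.52 and Matk from -0.78 to 0.43. Stem minus TA interaction: Alox5ap from -0.76 to 0.77, Matk from -1.32 to 0.67 and Vav1 from -0.56 to 0.19. The cause was not tested.

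Counts over all genes moved more. DESeq2 called 7167 and 6982 genes for het Paneth against TA and stem (edgeR 4721 and 4600), and 2231 and 1945 for stem against TA (het and hom). A mean of at least 5 CPM gave 18, 4 and 1 genes for the genotype in stem, TA and Paneth libraries, and 1 fit of all libraries 8, 1 and 2. Without 1 mouse, stem against TA fell to as few as 249 genes (without BO27, het) and 184 (without BO25, hom), Paneth against TA to 2810 (without BP03, het) and 2490 (without BO57, hom), and Paneth against stem to 2870 (without BN44, het) and 3224 (without BN45, hom). With library totals 1497 of 4945 calls were higher for het Paneth against stem (2809 of 4600 with TMM), 1071 of 4849 for hom Paneth against TA (2635 of 4608) and 1223 of 4839 for hom Paneth against stem (2819 of 4955). Depth limits what can be said of stem and TA libraries, where some groups held 0 counts of a member.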
